A study of Mus musculus with 5 samples.

Results

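Hsf1 and Hsf2 encode heat shock transcription factors, and the HSF1 binding sites in and around these 2 genes are described here, out of 21631 protein-coding genes on the autosomes and X of GRCm38. A site was assigned to a gene when the summit of a deposited peak lay inside the gene or within 10000 bp of it. The rule found 2 peaks in the list from NMDA-treated neurons and 1 peak in the list from control neurons, all of them in Hsf1. Hsf2 had 0 peaks in both lists.

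HSF1 is the factor that switches on chaperone genes when proteins misfold. In resting cells it is held inactive by chaperones, among them HSP90, HSP70 and the chaperonin complex. On release it forms trimers and binds heat shock elements, which are inverted repeats of the letters GAA, and the chaperones made in response bind HSF1 again and close the feedback loop. HSF2 is a paralogue that binds the same elements, forms mixed trimers with HSF1 and is known for roles in brain and germ cell development. A peak inside a factor's own gene marks binding and does not show that the gene is regulated by it.

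The data come from HSF1 chromatin immunoprecipitation and sequencing (ChIP-seq) of wild-type primary cortical neurons, prepared from Swiss-Webster mouse embryos at embryonic day 16 and used on day 13 in culture. The NMDA group (2 libraries) received NMDA, an agonist of a class of glutamate receptors, at 50 µM for 10 min and then had 20 min in medium without the drug. The control group (2 libraries) had no treatment, and 1 input library of sheared chromatin came from untreated neurons and is the only one in the series. The authors deposited 1 list per condition, 3646 NMDA peaks and 3316 control peaks, so no value below has a replicate error, no test between the conditions was possible, and depth is unknown. Fold enrichment is the authors' ratio of ChIP signal over background at a peak, and no common scale for the lists is known. A q below 0.05 was reached by 2782 of the 3646 NMDA peaks and 2286 of the 3316 control peaks. Neuronal identity could not be checked, because peak lists hold no expression values.

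Promoter sequences are shown first, as RefSeq's promoter table (GRCm38.p6) gives them, from 250 bases before to 50 bases after the start site. Capitals mark the letters of a heat shock element, searched as GAANNTTC and TTCNNGAA (2 units) and, as 3 units, as GAANNTTC followed by NNGAA and TTCNNGAA followed by NNTTC. The 2-unit motifs read the same on both strands, the 3-unit motifs are each other's reverse complement, and a 3-unit match contains overlapping 2-unit matches. Hsf2 is the member without a peak (chr10:57486135-57486434, + strand). Hsf5 is 1 of the 3 family genes whose promoters were searched, with Hsf2 and Hsf3, and the one of these with a 2-unit match (chr11:87616914-87617213, + strand). Hsph1, an HSP70 nucleotide exchange factor, has a promoter peak in both lists (chr5:149636287-149636586, - strand). Chordc1, which encodes an HSP90 cochaperone, has one in the NMDA list (chr9:18292017-18292316, + strand).
Hsf2: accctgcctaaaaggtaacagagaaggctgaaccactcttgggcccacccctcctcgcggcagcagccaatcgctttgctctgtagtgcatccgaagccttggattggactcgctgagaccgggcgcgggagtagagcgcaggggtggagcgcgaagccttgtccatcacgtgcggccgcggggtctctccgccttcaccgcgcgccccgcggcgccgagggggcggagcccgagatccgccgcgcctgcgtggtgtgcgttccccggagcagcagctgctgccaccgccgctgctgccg
Hsf5: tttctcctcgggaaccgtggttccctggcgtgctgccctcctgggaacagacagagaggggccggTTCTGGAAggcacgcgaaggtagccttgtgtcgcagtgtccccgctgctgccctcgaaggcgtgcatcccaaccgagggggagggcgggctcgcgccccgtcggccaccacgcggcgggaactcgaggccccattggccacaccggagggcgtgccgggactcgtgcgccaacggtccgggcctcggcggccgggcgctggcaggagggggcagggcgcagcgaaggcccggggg
Hsph1: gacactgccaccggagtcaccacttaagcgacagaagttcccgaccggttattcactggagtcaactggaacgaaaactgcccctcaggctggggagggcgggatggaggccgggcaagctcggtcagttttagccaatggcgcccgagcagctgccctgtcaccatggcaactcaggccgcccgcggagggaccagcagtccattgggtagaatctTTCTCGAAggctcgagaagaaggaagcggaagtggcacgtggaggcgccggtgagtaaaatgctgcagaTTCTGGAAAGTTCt
Chordc1: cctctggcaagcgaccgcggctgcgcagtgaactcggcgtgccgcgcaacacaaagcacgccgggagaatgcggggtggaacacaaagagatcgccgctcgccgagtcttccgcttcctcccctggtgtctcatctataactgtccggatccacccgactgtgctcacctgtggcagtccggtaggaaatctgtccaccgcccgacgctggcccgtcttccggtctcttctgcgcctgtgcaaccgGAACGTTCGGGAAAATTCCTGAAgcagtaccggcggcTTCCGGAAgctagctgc
The Hsf2 promoter window held 0 matches of any of the motifs, and Hsf5 held 1 match of 2 units. The Hsf2 window lies inside the gene interval used here, which begins at 57483766, and the bases at that end were not searched. Hsph1 held 3 matches of 2 units, which included 1 match of 3 units, with the NMDA summit 3 bp and the control summit 68 bp after this start site. Chordc1 held 5 matches of 2 units and 3 of 3 units, with the NMDA summit 1 bp after the start site. Of the 32619 promoters of the table on chromosomes 1 to 19 and X, 15.1% held a 2-unit match and 0.607% a 3-unit match. Hsph1 and Chordc1 were chosen for their 3-unit matches. Of the 14 chaperone genes and partners with a gene-end NMDA peak that are described below, 11 had a promoter in the table, of which 4 held a 2-unit match, 2 of these also a 3-unit match, and 7, among them Stip1, Ptges3, Tcp1, Cct3 and Dnajb1, held 0 matches. Both Hsf1 sites are given by position, and their sequence was not searched here.

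Hsf1 (chromosome 15, 76477362 to 76501155) carried 1 site in both lists and 1 site in the NMDA list alone. The site found in both lists lay inside the gene, away from its ends, and stood high in the control list. The site found in the NMDA list alone lay at the gene end that faces Bop1 and was of average strength for that list. The map of peaks around the genes shows both sites.

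**Figure D1:**
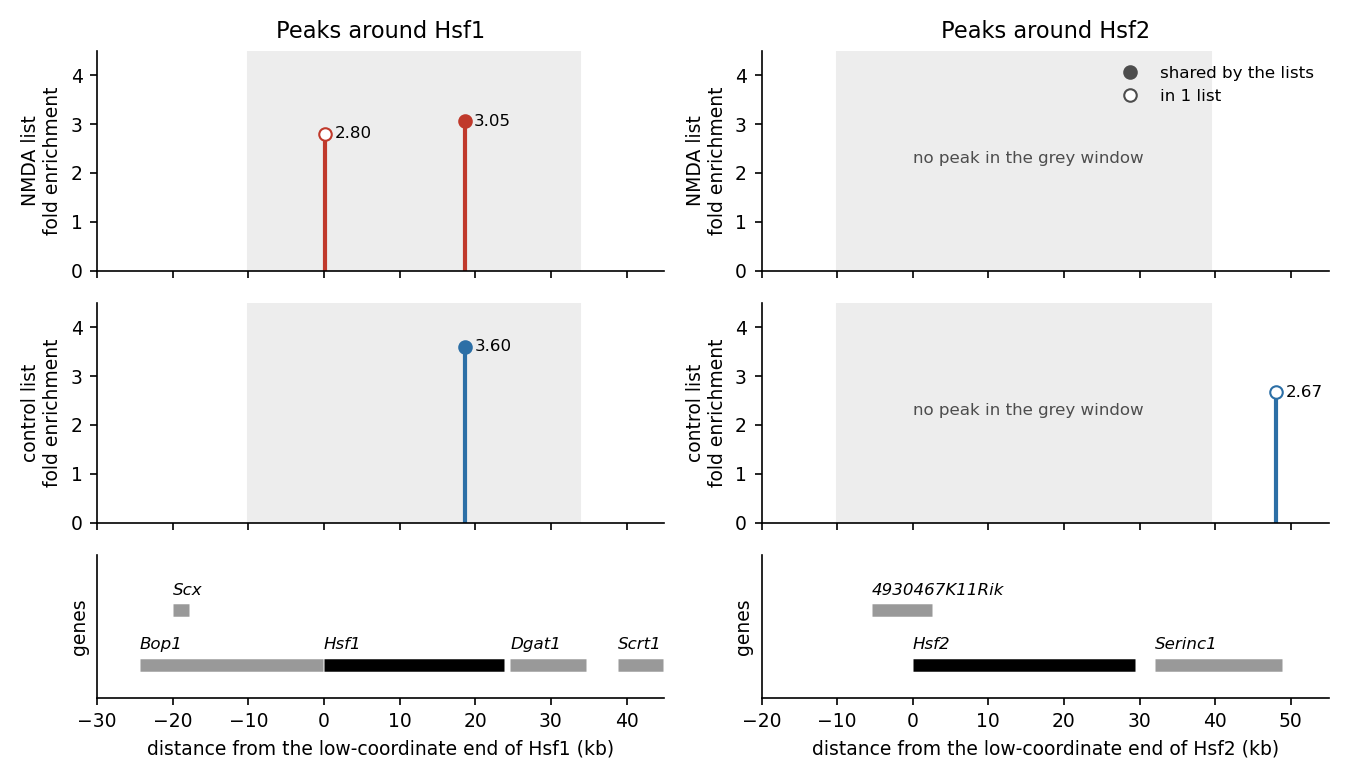
Fold enrichment (y axis) of every peak around Hsf1 (left) and Hsf2 (right), against distance in kb from the low-coordinate end of the gene, in the NMDA list (top) and the control list (middle), with genes as bars (bottom). The grey window is the gene with 10000 bp on either side. The window holds 2 NMDA peaks and 1 control peak at Hsf1 and 0 peaks at Hsf2, whose nearest control peak lies inside Serinc1.

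The gene-end site of Hsf1 appeared in the NMDA list only. This NMDA peak ran from 76477431 to 76477905 (475 bp), with its summit at 76477548, which is 186 bp inside the low-coordinate end of Hsf1. Bop1, a ribosome biogenesis gene, lies 113 bp away from Hsf1, and the summit lay 299 bp from the nearer end of Bop1. The genes are known to be transcribed away from each other from a common promoter region, so the peak is a gene-end peak of both and cannot be given to one of them. Its fold enrichment was 2.80, with a −log10 p of 6.53 and a −log10 q of 2.37. Control neurons had 0 listed gene-end peaks at Hsf1, and a missing peak does not show that binding is absent.

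In rank the gene-end site stood near the middle of its list. It was number 1386 of 3646 by fold, and 61.8% of the NMDA peaks had a lower fold. Among the 366 NMDA peaks within 1000 bp of an end of a protein-coding gene, it ranked 156, close to their median fold of 2.79. By width it stood apart more than by fold, since 89.2% of the NMDA peaks were narrower. Over all protein-coding genes, NMDA peaks at a gene end were listed for 1.93% and control peaks for 2.55%. Genes with an NMDA peak and no control peak at their ends numbered 358, or 1.66%.

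The internal site of Hsf1 was found in both lists. The NMDA peak ran from 76495890 to 76496153 (264 bp, summit 76496016), and the control peak ran from 76495899 to 76496149 (251 bp, summit 76496043). Both summits lay about 5 kb inside the high-coordinate end of the gene, at 5139 bp in the NMDA list and 5112 bp in the control list, or 78.4% and 78.5% of the way along the gene. The next gene, Dgat1, an enzyme gene of triglyceride synthesis, lies 857 bp beyond Hsf1, and its nearer end was 5996 bp and 5969 bp from the summits. Whether the site is exonic or intronic is not given, because exon positions were not used here.

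The strength of the internal site differed in its place within each list. In the NMDA list its fold was 3.05, with a −log10 p of 8.33 and a −log10 q of 3.80. The control peak had a fold of 3.60, a −log10 p of 12.7 and a −log10 q of 7.50. The site was number 787 of 3646 in the NMDA list, where 78.3% of peaks had a lower fold, and number 35 of 3316 in the control list, where 98.9% had a lower fold. On chromosome 15 it was number 29 of 152 NMDA peaks and number 2 of 149 control peaks. The difference between 3.05 and 3.60 was not tested for lack of a common scale, and the ranks are a description.

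The peak numbers that the authors gave follow −log10 p within each list (Spearman correlation −0.999 in both, across peaks, as a description). They reach 36736 among NMDA peaks and 50997 among control peaks, far more than the peaks deposited. The internal site of Hsf1 had number 648 as an NMDA peak and number 34 as a control peak. The gene-end site had number 3028.

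**Figure D2:**
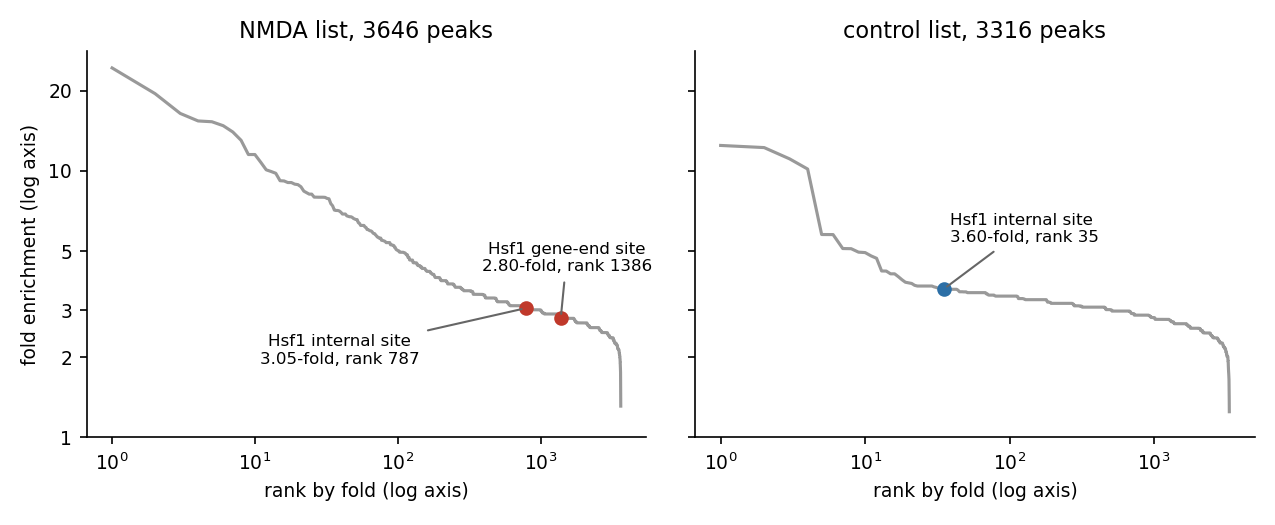
Fold enrichment of all peaks (y axis, log) against their rank by fold (x axis, log) in the NMDA list (left) and the control list (right), with the Hsf1 sites as points. The internal site lies at rank 787 in the NMDA list and rank 35 in the control list, and the gene-end site lies at rank 1386 in the NMDA list.

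Among the peaks of its own class the internal site kept that order. Of peaks inside protein-coding genes and away from gene ends, it was number 337 of 1572 in the NMDA list and number 19 of 1445 in the control list. The control peaks of higher fold numbered 34, of which 11 lay inside Top2b, the gene of topoisomerase IIβ, 10 lay at gene ends and 15 were shared with the NMDA list, classes that can overlap. Over all protein-coding genes, 7.74% had a non-gene-end peak in the window in the NMDA list and 8.09% had one in the control list. Shared peaks made up 2.23% of such internal NMDA peaks and 2.56% of such control peaks.

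The Hsf1 pair had a smaller summit gap and a fuller overlap than most of the shared sites. The NMDA and control summits were 27 bp apart, against a median gap of 82 bp over the 95 pairs, and 23 pairs had a smaller gap. The control peak lay wholly within the NMDA peak. Their 251 bp of overlap covered 95.1% of the 264 bp that either peak spans, against a median of 56.5%, and 6 pairs had a higher value. These 6 include wide regions of the mitochondrial genome (99.6% and 99.8%), which are counted among the 95 pairs. Both peaks were narrow, and 31.2% of the NMDA list and 21.8% of the control list were narrower still.

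Within the shared sites the Hsf1 site ranked 37 of 95 by fold in the NMDA list and 16 of 96 in the control list. Counted with Hsf1, 15 pairs had at least its place in the control list, and 10 of these lay inside Top2b. Besides Hsf1, the others lay at Hspd1, a mitochondrial chaperonin gene, at Mrpl57, a mitochondrial ribosomal protein gene, and at positions outside protein-coding genes. Of all pairs, 40 stood higher in the NMDA list than in the control list, and 55, with Hsf1 among them, stood higher in the control list. The sites inside Top2b had 86.5% to 99.7% of the NMDA list below them, 9 of the 10 at least 97.2%, against 78.3% for Hsf1. The plot of shared sites shows the Hsf1 site above the diagonal.

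**Figure D3:**
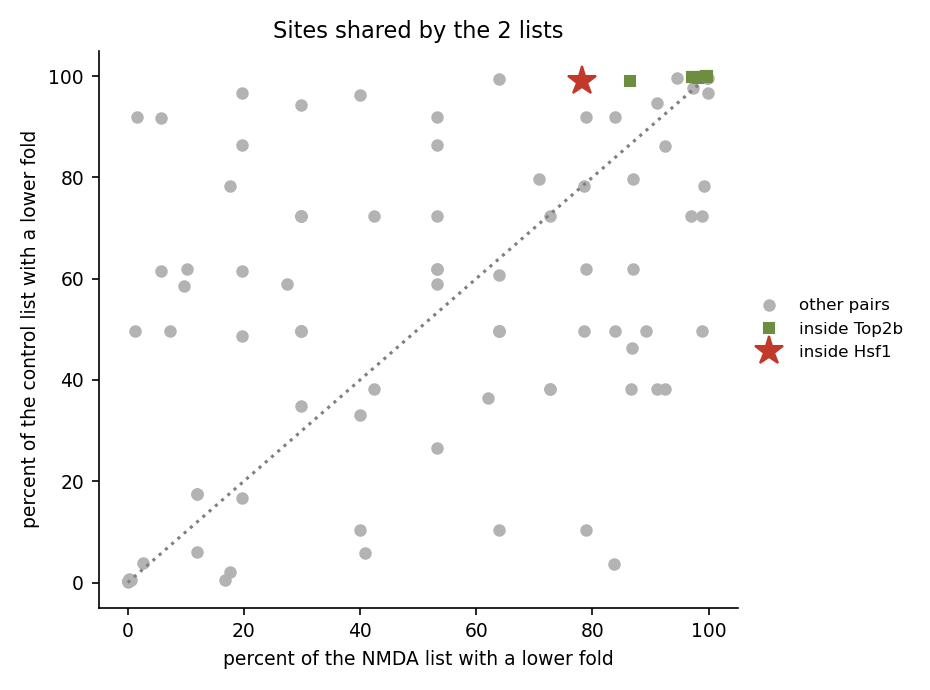
Each point is a site shared by the lists, placed by the percent of NMDA peaks (x axis) and of control peaks (y axis) that have a lower fold, with the dotted line marking equal places. The Hsf1 site (star) stands at 78.3% for NMDA and 98.9% for control, at the height of the sites inside Top2b on the control axis and to the left of them on the NMDA axis.

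No further peak lay near Hsf1. In the NMDA list the next summits were 773352 bp below and 598209 bp above the gene. In the control list they were 268693 bp below and 375345 bp above. Over all protein-coding genes, 9.41% had a summit inside or within 10000 bp in the NMDA list and 10.3% had one in the control list, and 2.72% had one in both. The share with 2 or more NMDA peaks was 1.51%, and a peak shared by the lists was present at 0.439% of genes. Long genes catch more peaks, so genes at most 1.5 times longer or shorter than Hsf1 were also counted, a set chosen after the data were examined. Of these 4807 genes, 6.95% had a summit in the NMDA list, 7.59% had one in the control list and 0.478% had a shared peak.

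Hsf2 (chromosome 10, 57483766 to 57513143) held 0 peaks inside the gene or within 10000 bp of it, as did 83% of protein-coding genes. Its nearest NMDA summit lay 230917 bp away, at a 2.09-fold peak (57743652 to 57744322) that was 2948 bp from Pkib, the gene of a protein kinase inhibitor. This NMDA peak had a −log10 q of 0.93, short of q below 0.05. The nearest control summit lay 18708 bp beyond the high-coordinate end, just outside the window, at a 2.67-fold peak (57531721 to 57532007) with a −log10 q of 1.62. That peak lay inside Serinc1, a gene of the serine incorporator family, 678 bp from its end, and had no NMDA partner. For comparison, the median distance from a gene to its nearest summit was 278148 bp in the NMDA list and 257350 bp in the control list. A nearer NMDA summit than that of Hsf2 was present at 45.0% of genes, and a nearer control summit at 12.3%. The low-coordinate end of Hsf2 overlaps 4930467K11Rik, a long noncoding RNA gene. The promoter window of this RNA, which partly covers the same bases as that of Hsf2, also held 0 matches of the motifs.

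The rest of the family was without peaks. Hsf3, known in mouse for a part in the heat response, Hsf4, known for lens development, and Hsf5, known for sperm development, had 0 peaks in the window in both lists. Hsf1 was therefore the only 1 of 5 family genes with a peak under this rule in either list. Of all protein-coding genes, 83% had a peak in neither list, so the 4 family genes without one do not set the family apart. The 2-unit match in the Hsf5 promoter shown above began at position −185 relative to the start site, and the promoter had no summit within 10000 bp.

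The chaperone arm of the feedback loop was counted by the same rule. Of 22 chaperone genes and partners, 14 (63.6%) carried NMDA peaks at a gene end and 4 (18.2%) carried control peaks there, against 1.93% and 2.55% of all protein-coding genes. The median of the highest gene-end fold of these 14 genes was 4.14 in the NMDA list, with a range from 2.58 to 15.4, and the 2.80 of Hsf1 lay inside that range, with 12 of the 14 genes above it. The difference between the chaperone and factor genes was not tested. Hsp90aa1, an HSP90 gene, had an 8.17-fold NMDA peak with its summit 2 bp from the gene end and a second one, 5.38-fold, 3050 bp outside the gene. Hsp90ab1, the other cytosolic HSP90 gene, had 2 NMDA peaks at gene ends, of 3.76-fold and 3.53-fold.

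An HSP70 gene and an HSP70 partner had the highest values. Hspa8, the constitutive HSP70 gene, had a 15.4-fold NMDA peak and no control peak. Hsph1 had 15.3-fold in the NMDA list and 3.39-fold in the control list. Dnajb1, whose HSP40 product helps HSP70 to detach HSF1 from DNA, was unlike them. It had 2.69-fold in the NMDA list, where 42.5% of peaks were lower, and 2.88-fold in the control list, where 72.4% were lower. The cochaperone genes Dnaja1 (6.63-fold), Fkbp4 (6.15-fold), Chordc1 (4.87-fold), Stip1 (3.98-fold) and Ptges3 (3.66-fold) had NMDA peaks at a gene end and no control peak in the window.

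Of the chaperonin genes, Tcp1 had 4.30-fold in the NMDA list alone, and Cct3 had 3.23-fold in the NMDA list and 2.67-fold in the control list. Cct2 and Cct4 had NMDA peaks in the window but more than 1000 bp from gene ends, of up to 3.12-fold and 3.01-fold. The 3.12-fold summit lay 1380 bp from the nearer end of Cct2, and 903 bp after another annotated start site of that gene. Stub1, the gene of a ubiquitin ligase that works with HSP70, had a 2.36-fold gene-end peak in the control list alone. The −log10 q of this Stub1 peak, 0.95, falls short of q below 0.05, and 17.5% of the control list had a lower fold. Counting shared sites, 3 of the 22 genes (13.6%) had one, Hsph1, Dnajb1 and Cct3, against 0.439% of all protein-coding genes. Each of these 3 sites lay at a gene end, whereas the shared site of Hsf1 was internal. Of the 95 shared NMDA peaks, 30 lay at a gene end and 35 were internal.

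**Figure D4:**
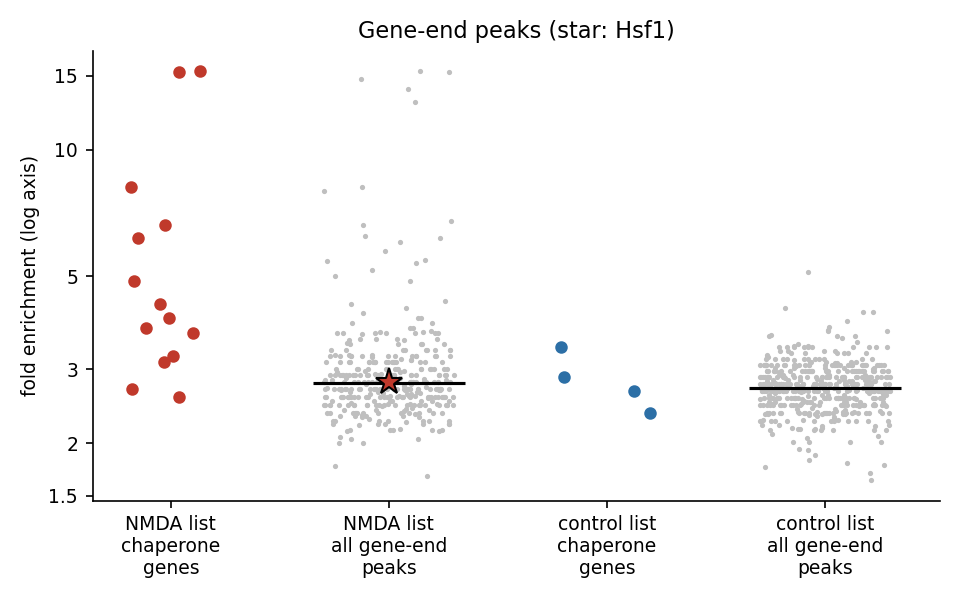
Fold enrichment (y axis, log) of gene-end peaks in the NMDA list (left pair of columns) and the control list (right pair), with 1 point per chaperone gene, its highest value, and 1 grey point per peak of the whole list, the bar being the median. The Hsf1 gene-end peak (star, 2.80-fold) lies at the NMDA median of 2.79, and 12 of 14 chaperone genes lie above it.

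Genes of HSF partners, modifiers and cofactors were near the background. Of 27 genes, 4 (14.8%) had a summit in the window in each list, against 9.41% of all protein-coding genes for NMDA and 10.3% for control, and 2 of them, Ep300 and Fbxw7, had one in both, at sites that do not overlap. Ep300, an acetyltransferase of HSF1, had 2.90-fold in the NMDA list, at a summit 9438 bp outside the gene. In the control list it had 3.15-fold, at a summit inside the gene, 30543 bp from the nearer end. Fbxw7, the substrate receptor of a ubiquitin ligase that targets HSF1, had 2 peaks in each list. The higher NMDA value was 2.80-fold and the higher control value 2.88-fold. The other NMDA peak of Fbxw7 was 1.83-fold with a −log10 q of 0.45, short of q below 0.05. Daxx, a chromatin cofactor that binds HSF1, had a 2.22-fold gene-end peak in the NMDA list alone. That Daxx peak also falls short of q below 0.05, with a −log10 q of 1.15, and 6.83% of the NMDA list had a lower fold. Crebbp, a paralogue of Ep300, had an internal NMDA peak (2.80-fold), and Gsk3b, the gene of a kinase of HSF1, had an internal control peak (2.88-fold). A shared site was present at 0 of the 27 genes, against 0.439% of all protein-coding genes, so a count of 0 does not set the list apart.

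The combination seen at Hsf1 was an NMDA peak at a gene end, no control peak there, and a further peak in the window in both. It was found at 17 genes, or 0.0786% of protein-coding genes. The other 16 genes had a median length of 163 kb, against 23.8 kb for Hsf1, and 6 of them were shorter than Hsf1. A site shared by the lists was present at 1 of the 16, Syf2, a splicing factor gene.

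By the summed absolute difference of log2 fold over the 3 peak classes, the genes most like Hsf1 were Ctnna3 (0.13), Klf12 (0.38), Kcnq5 (0.44), Sox6 (0.51) and Trim35 (0.62), compared over 2 lists. Ctnna3, an α-catenin gene of 1574 kb, had 2.69-fold at a gene end and 3.01-fold elsewhere in the NMDA list, and 3.49-fold elsewhere in the control list. Trim35, a gene of the tripartite motif family, was the shortest of the 5 at 14.4 kb. Its values were 2.26-fold and 3.12-fold in the NMDA list and 2.98-fold in the control list. The control value of Hsf1, 3.60-fold, was above that of all 16 other genes, whose highest was 3.49-fold.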

How the data were processed

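HSF1 ChIP-seq peaks of NMDA-treated and control mouse cortical neurons were analysed. The submitters' processing notes list FastQC, Trimmomatic, BWA, SAMtools and MACS2 (no versions) and 2 build names, mm10 and GRCm38.p6. How the 2 libraries of a condition were combined was not given in the sources used here. Each deposited list holds a score, a fold ratio, −log10 p and −log10 q values, and a summit position. No common scale for the lists is known, so fold was used to rank peaks within a list.

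From these files, summits were assigned to genes of the RefSeq table of GRCm38.p6 (10000 bp window, 1000 bp for gene ends), and peaks overlapping by at least 1 bp were called shared. That gene table gives neither strand nor exons, and RefSeq's separate promoter table gives strand. Promoters matched 43 of 61 list genes. The steps were checked on simulated peaks and run in Python 3.11.15 with pandas 2.3.3. Members and gene lists were chosen with earlier results of these data known. Named genes were the members, the listed genes with a peak and the 5 genes most like Hsf1. Some genes of the lists are counted and not reported by name here. No test was run, since each condition is 1 list. Counts and shares cover these lists only.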

Additional observations from a re-analysis of the deposited data

How the results depend on the processing

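Of 41 alternative values, 40 stayed at the reported value or within 1.5 times of it, and 39 of the 41 settings were planned. The exception was Hsf2 in the control list, which had 1 peak with a window of 20000 bp, the peak inside Serinc1, because that window reaches it. Many of the alternatives could not move. With 0 peaks within 10000 bp of Hsf2, its counts of shared and gene-end peaks could only be 0. The same holds for its counts with a smaller window or with q below 0.05. The positions given above for the Hsf1 peaks also meet most of the other settings, so the count of 40 does not measure robustness. Hsf1 had 2 NMDA peaks and 1 control peak with windows of 5000 and 20000 bp, with q below 0.05 and with any overlap of the window. The shared site of Hsf1 was also found with 50% overlap of each peak, with summits within 500 bp and with q below 0.05 in both lists. Its gene-end peak was found with 500 and 2000 bp, as its summit distance of 186 bp requires. By −log10 q, 85.2% of the NMDA list and 99.0% of the control list lay below the internal site, and 60.8% of the NMDA list lay below the gene-end site. Depth is unknown, and its effect was not tested. Single libraries could not be left out, since each condition has 1 list and how its libraries were combined is not given. No paired analysis was possible because single libraries have no values in these lists.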

Other observations

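Promoters of the RefSeq table that held a summit within their 300 bases were also read for heat shock elements. In the NMDA list 107 promoters held one, and 25.2% of them had a 2-unit match and 12.1% a 3-unit match. In the control list 123 promoters held one, with 13.8% and 4.88%. Over the whole table the shares were 15.1% and 0.607%. Some genes have several promoters in the table, so these counts are not of independent sites. Of the 24 promoters listed for the chaperone genes, 12 held a 2-unit match and 3 a 3-unit match. Of the 26 listed for HSF partners and modifiers, 3 held a 2-unit match and 0 a 3-unit match. Both Hspa1a and Hspa1b, the inducible HSP70 genes, had a 2-unit match that began at position −104 relative to the start site, with no summit within 10000 bp in either list. These genes are near-identical copies, and unique placement of reads there was not tested.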
